A study of Mus musculus with 12 samples.

Results

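Transcripts of 10 genes of the mTOR pathway were followed in the mouse aorta: Mtor, Rptor, Rictor, Mlst8, Deptor, Akt1s1, Tsc1, Tsc2, Rheb and Rps6kb1. They were chosen because rapamycin inhibits mTOR, and each was followed through every non-control array probe that carries its symbol. These 10 genes, of 34796 with a name on the array, had 17 probes of 55681, and 15 of the 17 were tested because some group had the probe well above background on each of its 3 arrays. Every gene had at least 1 tested probe. The other 2, Rps6kb1 probe 4 and Rheb probe 3, were not well above background on any of the 12 arrays and give no level.

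The study asked how rapamycin acts on aortic dissection in mice, and its arrays sampled the aorta on day 3, each from 1 mouse. The mice were C57BL/6J per the labels and males aged 11 to 14 weeks per the study's methods, and they formed 4 groups of 3 (12 arrays). DMSO mice received vehicle alone, and rapamycin mice received rapamycin at 2 mg/kg/day. BA+DMSO mice received vehicle with the challenge, which was beta-aminopropionitrile (BAPN, an inhibitor of collagen crosslinking) at 150 mg/kg/day with angiotensin II (AngII, a peptide that raises blood pressure) at 1 µg/kg/min. BA+rapamycin mice received the same challenge with rapamycin. Vehicle or rapamycin was given by intraperitoneal injection. The titles of the DMSO arrays call them a state before challenge, whereas the series record describes vehicle-treated mice at day 3, and the treatment label was followed.

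mTOR is a kinase that promotes protein synthesis and cell growth when nutrients and growth factors are plentiful, and it works in a pair of complexes. mTORC1 is defined by Raptor (Rptor) and phosphorylates S6 kinase (Rps6kb1), whereas mTORC2 is defined by Rictor and phosphorylates Akt. The TSC proteins hold back the GTPase Rheb, which switches mTORC1 on, and rapamycin bound to FKBP12 (Fkbp1a) blocks mTORC1 acutely. The pathway is regulated mostly through phosphorylation, which an RNA array does not measure.

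The 75th percentile of signal, by which each array was scaled, was 221 to 337 on the 6 unchallenged arrays and 74.6 to 246 on the 6 challenged arrays. This measure, called brightness below, was 257 to 337 with rapamycin and 74.6 to 109 with BA+rapamycin. A fit with brightness as a covariate therefore cannot tell it apart from the challenge under rapamycin, and for the vehicle groups it can hardly do so. BA+DMSO replicate 3 was the only challenged array above 132, and correlations between the BA+DMSO arrays were 0.912 to 0.961, against 0.974 to 0.993 within the other groups. Slide 1 held the 3 DMSO arrays and rapamycin replicate 1, and slide 2 held the other 8, so slide and challenge can hardly be told apart in the vehicle groups. The titles of 8 arrays also carry a number string that arrays of another group share, and the sources used here do not say what it marks. Taken as a random block it had a correlation of 0.50. No string is shared by both groups of either challenge comparison. Smooth muscle markers were well above background on all arrays (6 of 6), with summed levels of 11.3 to 11.6 on unchallenged and 11.3 to 12.2 on challenged arrays. All 5 macrophage markers, all 4 cycling markers, all 3 tested erythroid markers, 2 of 4 tested neutrophil, 2 of 4 brown adipocyte and 2 of 6 endothelial markers rose in BA+DMSO against DMSO, and 1 of 6 smooth muscle markers fell. The summed cycling level was -0.78 to 0.46 on unchallenged and 3.38 to 5.77 on challenged arrays, the summed macrophage level was 4.31 to 5.24 and 5.91 to 7.01, and the summed erythroid level was 4.17 to 7.54 and 6.83 to 8.45. The tissue was a length of aorta above the right renal artery, per the study's methods. Because its cells were measured together, fewer cells of a type and less RNA per cell cannot be told apart.

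Each probe is 60 bases long, and differences between probes of 1 gene bear on which transcript was read. The first 30 bases of 4 probes follow for the kinase and for the probe pairs that read a gene at separate places, each 5′ to 3′ and in the sense of the transcript as the array files give it.
Mtor probe 1: ctgagaaatacgggttttgacttaacttac
Deptor probe 1: gccaggcacatggataattgggacattgca
Deptor probe 2: tgggcaacatggcaagacctaatgggaggg
Rps6kb1 probe 2: atagtacttttctcatgtgactcaacacta
On build mm9, the Mtor probe lies at chr4:147931250-147931309 on the plus strand and the Deptor probes lie at chr15:55083753-55083812 and chr15:55051739-55051798 on the plus strand. Rps6kb1 probe 2 lies at chr11:86312749-86312808 on the minus strand. Exon and UTR annotation of that build was not used here.

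A further set is shown because it holds AATAAA, the hexamer that marks many sites of polyadenylation, in capitals within 30 bases of the probe.
Mtor probe 2: tgcatctctatcAATAAAaatgtatcaatt
Rictor: agagctgcttgcAATAAAcatttcagattt
Rheb probes 1 and 2: tgtatacttgtaAATAAAatagctgcaaac
Rps6kb1 probe 1: tcgatggaggaaaaAATAAAcatggatttt
The hexamer was searched on the probe's own strand, where 5 of 17 member probes (29.4%) and 10.1% of all probes hold it. On the opposite strand 11.8% of member probes and 3.74% of all probes hold it. Mtor probe 2, at chr4:147829016-147829075, lies 102.234 kb upstream of probe 1 and is annotated to an Ensembl transcript rather than to the RefSeq transcript that probe 1 matches. Both Rheb probes shown lie at chr5:24309059-24309128 on the minus strand and share 50 bases, so they are nearly the same measurement.

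Rps6kb1 probe 3 is shown whole, since its 60 bases span 1245 bases of genome, chr11:86346290-86347534 on the minus strand, and so cross at least 1 intron. It reads spliced RNA.
Rps6kb1 probe 3: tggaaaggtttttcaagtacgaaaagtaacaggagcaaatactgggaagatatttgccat

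Of the 15 probes, 3 passed the test in BA+DMSO against DMSO, and all 3 were lower. They were Mtor probe 1, for the kinase, and the probes of Rictor and Rptor, the subunits that define its complexes. That is 20% of the member probes, while 20.5% of all 27801 tested probes passed, so members passed about as often as any probe. Among all tested probes, 10.8% passed as lower, against the same 3 of 15 members, and 9.65% as higher, against 0 of 15. The other 12 member probes did not pass. The member probes had a median log2 difference of -0.51, and all tested probes one of -0.04. Without BA+DMSO replicate 2 the member median was -0.22, and with brightness as a covariate it was -0.16, with all tested probes at -0.04 and -0.05. The groups did not overlap for 5 member probes, all lower, and for 34.6% of all tested probes (20.1% lower, 14.4% higher). All levels given below are log2 signals minus the array's 75th percentile, for replicates 1, 2 and 3. Adjusted p-values are from limma over all 27801 probes unless gene means, another setting or a permutation test is named.

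Mtor encodes the kinase itself. Probe 1 read 0.41, 0.43 and 0.34 with DMSO, 0.30, 0.24 and 0.44 with rapamycin, -1.32, -1.09 and -0.21 with BA+DMSO, and -0.90, -0.99 and -1.09 with BA+rapamycin. All 6 challenged arrays lay below all 6 unchallenged arrays, and BA+DMSO replicate 3 lay nearest to them. BA+DMSO was lower than DMSO by a log2 difference of -1.27 (SE 0.25, 2.41-fold, adjusted p = 0.00613). BA+rapamycin was lower than rapamycin by nearly the same amount, -1.32 (SE 0.25, 2.49-fold, adjusted p = 0.00296). In order of mean level, DMSO (0.40 ± 0.05, SD, n = 3) and rapamycin (0.33 ± 0.10) were neighbours that overlapped, as were BA+DMSO (-0.87 ± 0.59) and BA+rapamycin (-0.99 ± 0.10).

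The fall of Mtor probe 1 kept its call in 24 of 27 alternatives for the challenge and in 27 of 28 under rapamycin. Without BA+DMSO replicate 3 the challenge difference was -1.60 (adjusted p = 0.000225), and with the slide as a fixed block it was -1.31 (adjusted p = 0.367). On slide 2 alone, where both groups have arrays, BA+rapamycin was lower than rapamycin by -1.33 (adjusted p = 0.0444). With array brightness as a covariate, the challenge difference was -0.84 and still passed (adjusted p = 0.0362), whereas the difference under rapamycin was -0.57 and no longer passed (adjusted p = 0.312).

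**Figure D1:**
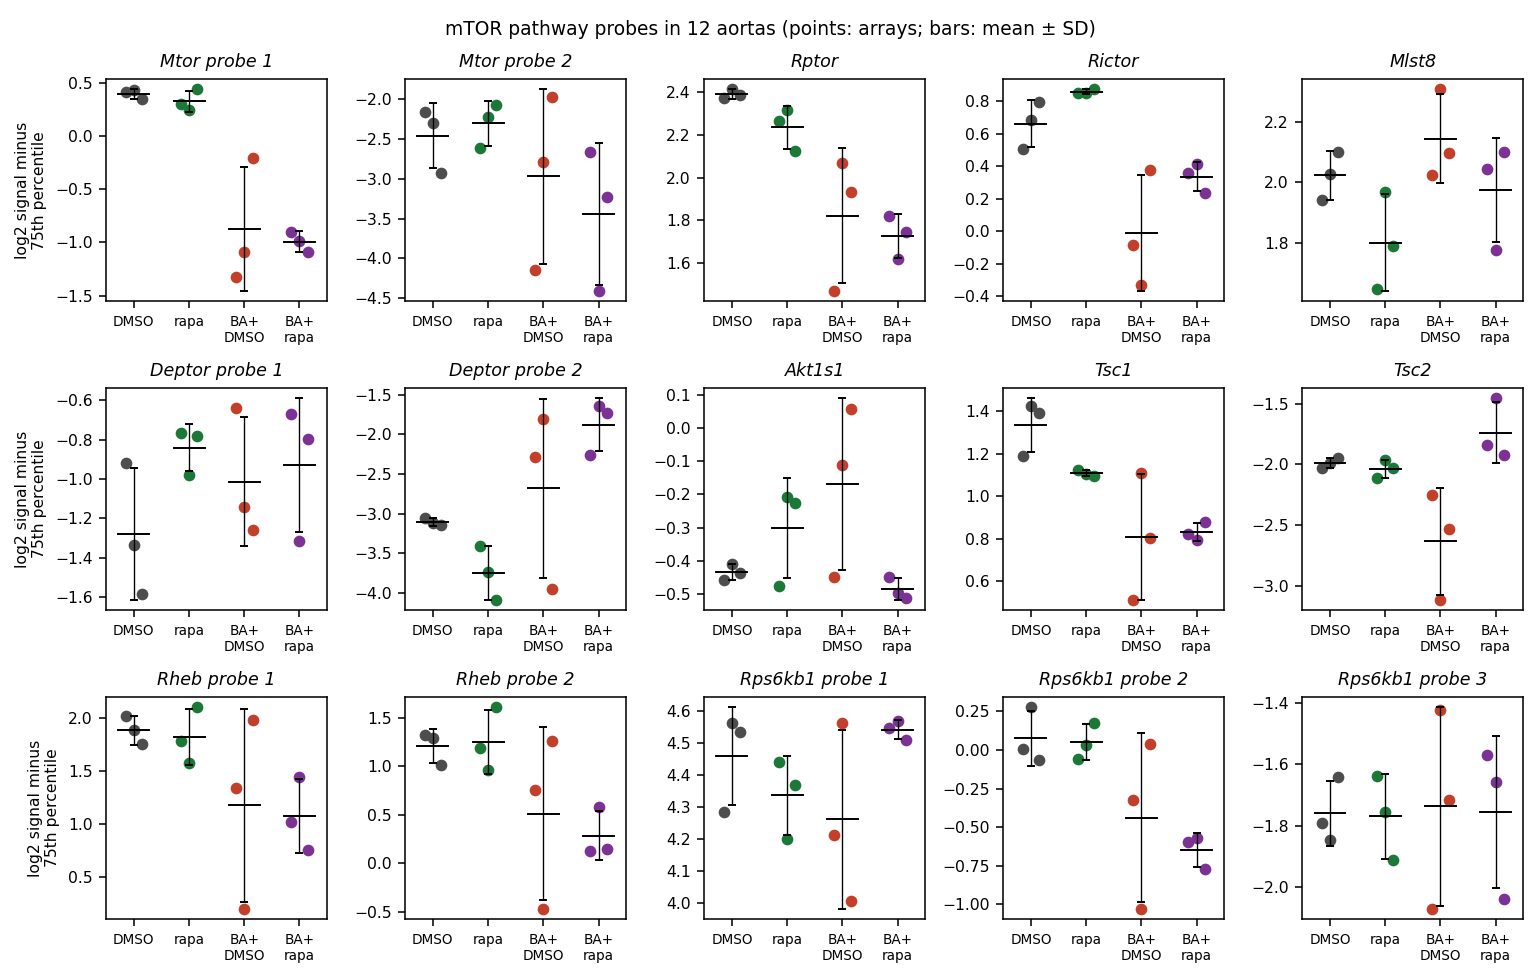
Each panel plots 1 tested probe, with 12 arrays as points by treatment group on the log2 scale (signal minus the array's 75th percentile) and the group mean ± SD as bars. Mtor probe 1 has all 6 challenged arrays below all 6 unchallenged arrays, BA+DMSO replicate 3 highest among them at -0.21, and each panel has its own axis range.

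A pair of measures moved with the Mtor level. Array brightness was 74.6 to 246 on challenged and 221 to 337 on unchallenged arrays. BA+DMSO replicate 3 had both the highest Mtor level and the highest brightness of the challenged arrays. The summed level of 5 skeletal muscle markers was 5.65 to 5.92 on unchallenged arrays, 5.96 on BA+DMSO replicate 3 and 3.95 to 4.67 on the other challenged arrays. That sum was nearly all Acta1, the actin of striated muscle, and not every marker followed it. Tnnt3, a troponin of fast muscle, was well above background on all 12 arrays. Its first probe ran from -2.604 to -2.10 with DMSO, from -2.79 to -2.38 with rapamycin, from -2.74 to -1.82 with BA+DMSO and from -2.01 to -0.48 with BA+rapamycin, so it was not lower on challenged arrays. Ckm, a creatine kinase of muscle, read -2.07, -2.55 and -2.41 with DMSO and -5.09, -3.64 and -2.99 with BA+DMSO, so its BA+DMSO arrays lay below its DMSO arrays as those of Acta1 did for replicates 1 and 2. With rapamycin it read -4.05, -3.59 and -2.80 and with BA+rapamycin -2.15, -3.40 and -4.79, which overlapped. It was well above background on 7 arrays, and Myh4 and Mylpf on none. The part of the muscle markers in the Mtor difference was not tested.

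**Figure D2:**
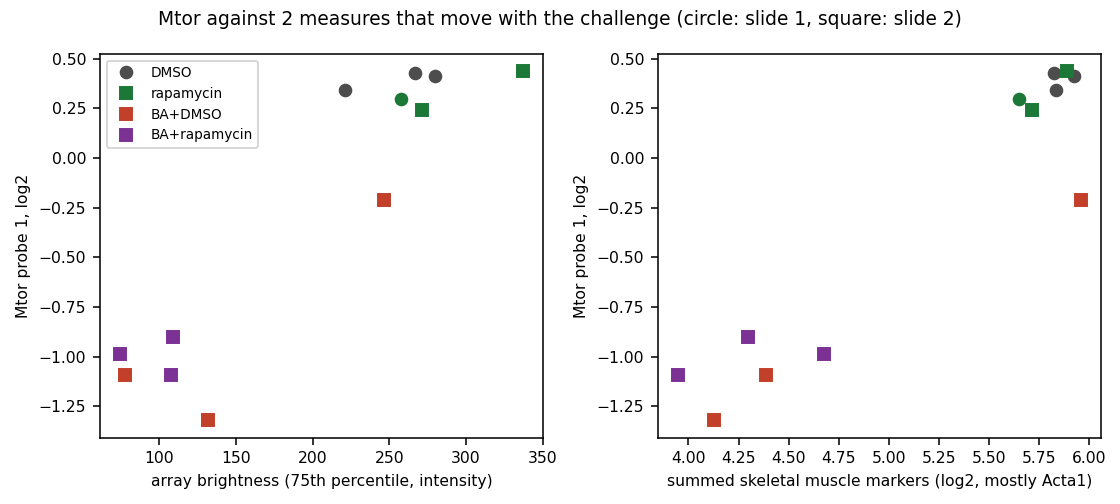
The log2 level of Mtor probe 1 on each array is plotted against array brightness (75th percentile of signal, linear intensity) on the left and against summed skeletal muscle markers (log2) on the right. BA+DMSO replicate 3 lies between the other challenged arrays and the unchallenged arrays in Mtor level, and beside the unchallenged arrays in both measures.

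The other Mtor probe lay close to background. Probe 2 read -2.16, -2.29 and -2.92 with DMSO, -2.62, -2.22 and -2.07 with rapamycin, -4.15, -2.79 and -1.97 with BA+DMSO, and -2.67, -4.42 and -3.23 with BA+rapamycin. All 6 unchallenged arrays had it well above background, whereas only 1 of 3 BA+DMSO arrays and no BA+rapamycin array did. The mean with BA+rapamycin was at least 1.23-fold below that with rapamycin, and the fit did not call it (95% interval -2.32 to 0.05, adjusted p = 0.108). This bound sets the unchallenged mean against the higher of the array's dimmest detected signal and the probe's own. It concerns the means of these arrays and carries no sampling error. The challenge difference of -0.51 (95% interval -1.69 to 0.67) was too wide to place against that of probe 1. With each gene taken as the mean of its tested probes, Mtor did not pass for the challenge (limma, adjusted p = 0.105) and passed as lower under rapamycin (adjusted p = 0.0215), and both means include the signals of probe 2 that were not well above background.

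Genes on the array whose pattern was most like that of Mtor probe 1 were found by Pearson's r over the 12 arrays. They were Osbpl3 (r = 0.993), which encodes a lipid transfer protein, Pdlim3 (r = 0.991), which encodes a protein of the muscle Z-disc, and Dst (r = 0.990), which encodes the cytoskeletal linker dystonin. The 12 points share the 4 groups and the brightness split. Among the members, r with Mtor probe 1 was highest for Rptor (0.88), Rps6kb1 probe 2 (0.86) and Rictor (0.85), and lowest for Deptor probe 2 (-0.83).

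Rictor is the scaffold that defines mTORC2. It read 0.51, 0.69 and 0.79 with DMSO, 0.85, 0.85 and 0.88 with rapamycin, -0.08, -0.33 and 0.38 with BA+DMSO, and 0.36, 0.41 and 0.24 with BA+rapamycin. Challenged arrays lay below all unchallenged arrays, with BA+DMSO replicates 1 and 2 the lowest. The challenge difference was -0.67 (SE 0.19, 1.59-fold, adjusted p = 0.0295), and the difference under rapamycin was -0.52 (SE 0.19, 1.44-fold, adjusted p = 0.0449).

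Rptor encodes Raptor, which brings substrates to mTORC1. It read 2.37, 2.41 and 2.39 with DMSO, 2.26, 2.32 and 2.12 with rapamycin, 1.47, 2.07 and 1.93 with BA+DMSO, and 1.82, 1.62 and 1.74 with BA+rapamycin. No challenged array reached the lowest unchallenged array, which was rapamycin replicate 3. BA+DMSO was lower than DMSO by -0.57 (SE 0.18, 1.48-fold, adjusted p = 0.0431) and BA+rapamycin was lower than rapamycin by -0.51 (SE 0.18, 1.42-fold, adjusted p = 0.0394).

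These calls for Rictor and Rptor lay close to the threshold, while the direction was lower in every alternative run. For the challenge, Rictor kept its call in 19 of 27 alternatives and Rptor in 8 of 27. Under rapamycin they kept it in 8 and 9 of 28. With the title string as a random block both kept it for the challenge, and under rapamycin neither did (Rictor -0.46, adjusted p = 0.0710, and Rptor -0.43, adjusted p = 0.0840). With brightness as a covariate neither passed in either comparison. For the challenge, the Rptor call was lost without any 1 of the DMSO, rapamycin and BA+rapamycin replicates or BA+DMSO replicate 1, and the Rictor call without any 1 of the DMSO replicates or BA+DMSO replicate 1. The number of members called for the challenge was 1, Mtor, without DMSO replicate 1, without replicate 2 and without replicate 3. Of all tested probes 11.8%, 7.38% and 11% then passed. The number was 9 without BA+DMSO replicate 3, when 38% of all tested probes passed. The 9 then were Mtor probe 1, Rictor, Rptor, Tsc1, Tsc2, both tested Rheb probes and Rps6kb1 probe 2, all lower, and Deptor probe 2, higher.

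Mlst8 and Akt1s1, which encode other subunits, passed in no comparison. Mlst8 is shared by both complexes, and its 12 levels ran from 1.65 to 2.31 with the groups of each comparison overlapping. Its challenge difference was 0.12 (95% interval -0.24 to 0.48). Akt1s1 encodes PRAS40, an inhibitor of mTORC1. Its levels ran from -0.51 to 0.06, and its differences were 0.27 for the challenge (95% interval -0.10 to 0.63) and -0.18 under rapamycin (95% interval -0.55 to 0.18).

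Deptor encodes an inhibitor that binds both complexes, and of its 2 probes only probe 2 passed in a comparison. Probe 2 read -3.05, -3.12 and -3.14 with DMSO, -3.41, -3.74 and -4.09 with rapamycin, -2.28, -1.81 and -3.96 with BA+DMSO, and -2.26, -1.64 and -1.73 with BA+rapamycin. The BA+rapamycin arrays lay above all 6 unchallenged arrays, while BA+DMSO replicate 3 lay below the DMSO arrays. BA+rapamycin was higher than rapamycin by 1.87 (SE 0.45, 3.66-fold, adjusted p = 0.00860). The probe was not well above background on rapamycin replicate 3 and BA+DMSO replicate 3, so the fitted 3.66-fold has no firm size. With array brightness as a covariate the difference between BA+rapamycin and rapamycin was -0.02 (adjusted p = 0.981). Brightness did not overlap between these groups, so that fit cannot separate it from the challenge.

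Deptor probe 1, at the 3′ end and 32.014 kb downstream, ran from -1.59 to -0.64 on all 12 arrays with challenged and unchallenged arrays intermingled. Its difference under rapamycin was -0.09 (95% interval -0.62 to 0.45). Within arrays, probe 1 minus probe 2 was 2.36 ± 0.66 (SD, n = 6) without challenge and 1.31 ± 0.85 (n = 6) with it, a difference of -1.06. The exact two-sided permutation test gave p = 0.0411 (0.103 adjusted over the 5 probe pairs tested). Probe 2 is annotated to a cDNA clone rather than to the RefSeq transcript.

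Upstream of mTORC1, Tsc1 encodes hamartin and Tsc2 encodes tuberin, the partners that inactivate Rheb. Tsc1 ran from 1.10 to 1.43 on unchallenged arrays and from 0.51 to 1.11 on challenged arrays. Its challenge difference of -0.53 (SE 0.17) lay just outside the threshold (adjusted p = 0.0510), and the BA+DMSO arrays lay below the DMSO arrays. In limma, Tsc1 passed for the challenge in some alternatives, among them gene means (adjusted p = 0.0440) and brightness as a covariate (-0.65, adjusted p = 0.0413). It did not with quantile normalization, with cyclic loess, with the slide as a fixed block or without any 1 DMSO replicate. Under rapamycin its difference was -0.28 (95% interval -0.65 to 0.10).

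Of the 15 tested probes, that of Tsc2 had the largest difference between BA+rapamycin and BA+DMSO. It read -2.03, -1.99 and -1.95 with DMSO, -2.11, -1.97 and -2.03 with rapamycin, -2.25, -3.12 and -2.53 with BA+DMSO, and -1.84, -1.45 and -1.93 with BA+rapamycin. Every BA+DMSO array lay below every other array, and every BA+rapamycin array lay above every other array. Between BA+rapamycin and BA+DMSO, the groups did not overlap for 1 member probe, Tsc2, and for 14.5% of all tested probes (6.9% as higher). BA+DMSO minus DMSO was -0.65 (SE 0.22, adjusted p = 0.0605) and BA+rapamycin minus BA+DMSO was 0.89 (SE 0.22, 1.85-fold, adjusted p = 0.0975), and neither passed. BA+DMSO replicate 2, the lowest array, was not well above background for Tsc2. Without that array BA+DMSO minus DMSO was -0.40 (adjusted p = 0.0942), whereas BA+rapamycin minus BA+DMSO was 0.65 and passed (adjusted p = 0.0141). BA+DMSO minus DMSO passed without BA+DMSO replicate 1 (-0.84, adjusted p = 0.0373) and without replicate 3 (-0.70, adjusted p = 0.0461).

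Rheb encodes the GTPase that activates mTORC1. Its tested probes gave challenge differences of -0.71 (95% interval -1.54 to 0.12) and -0.69 (95% interval -1.51 to 0.12). Under rapamycin they gave -0.75 (adjusted p = 0.127) and -0.97 (adjusted p = 0.0559). The wide intervals came with BA+DMSO levels of probe 1 that ran from 0.19 on replicate 2 to 1.98 on replicate 3, against 1.58 to 2.10 on unchallenged arrays. Both BA+rapamycin sets lay below their rapamycin sets.

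Rps6kb1 encodes S6 kinase 1, the substrate read most often for mTORC1 activity, and 3 of its probes were tested. Probe 2, the most 3′ of them, read 0.01, 0.28 and -0.06 with DMSO, -0.06, 0.04 and 0.18 with rapamycin, -0.32, -1.03 and 0.04 with BA+DMSO, and -0.60, -0.57 and -0.77 with BA+rapamycin. The BA+rapamycin arrays lay below all unchallenged arrays, and BA+DMSO replicate 3 lay among them. BA+rapamycin was lower than rapamycin by -0.70 (SE 0.24, 1.62-fold, adjusted p = 0.0401). With brightness as a covariate the difference was 0.15 (adjusted p = 0.783).

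Probe 1 lies 3.315 kb upstream of probe 2, and its 12 levels ran from 4.01 to 4.57. Its difference under rapamycin was 0.21 (95% interval -0.18 to 0.59). Probe 3, the spliced 5′ probe 33.541 kb upstream, ran from -2.07 to -1.42 and gave 0.01 (95% interval -0.43 to 0.46). Probe 1 minus probe 2 within arrays was higher by 0.61 under challenge (exact two-sided permutation p = 0.0390, 0.103 adjusted over the 5 pairs), while probe 1 minus probe 3 was -0.01 (p = 0.913). Without BA+DMSO replicate 3 the Deptor and the first Rps6kb1 pair passed the adjusted threshold in the same exact test. Their differences were then -1.33 (adjusted p = 0.0325) and 0.81 (adjusted p = 0.0216). Over 14 alternatives the Deptor difference ranged from -1.33 to -0.61, with an adjusted p of up to 0.200 in that test. The Rps6kb1 difference ranged from 0.058 to 0.81, with an adjusted p of up to 0.806.

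**Figure D3:**
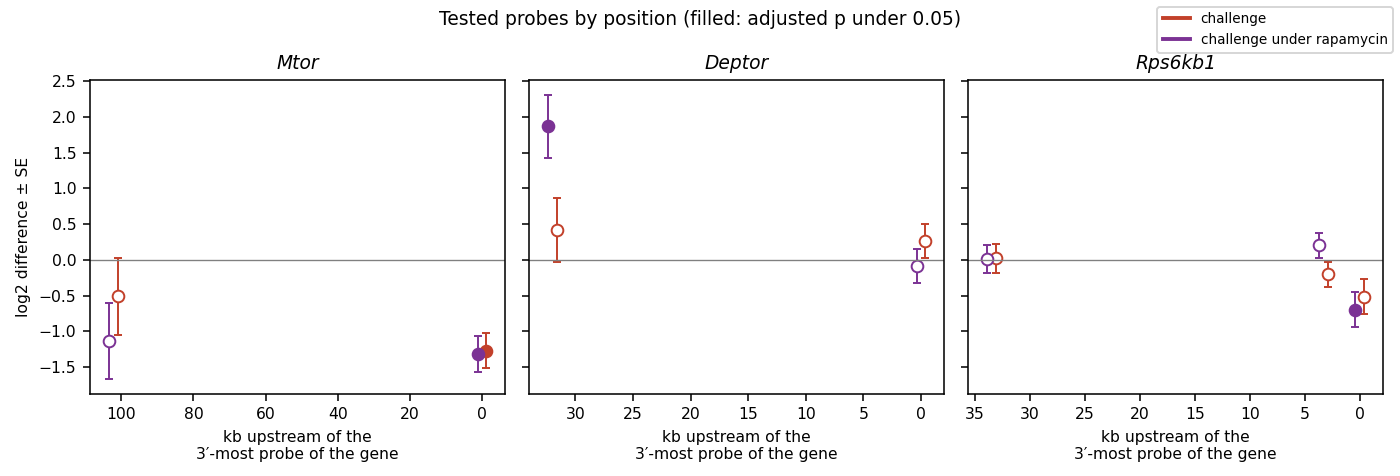
Log2 differences ± SE of each tested probe of Mtor, Deptor and Rps6kb1 are plotted against the distance of the probe, in kb, upstream of the gene's 3′-most probe, in vehicle (red) and in rapamycin (purple) groups. Filled points passed the test, and Deptor probe 2, 32.014 kb upstream, stands at 1.87 where probe 1 stands at -0.09.

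Among rapamycin-treated mice, 5 of the 15 member probes passed in BA+rapamycin against rapamycin (33.3%, with 41.7% of all tested probes passing). Lower were Mtor probe 1, Rictor, Rptor and Rps6kb1 probe 2 (26.7%, against 22.9% of all tested probes), and Deptor probe 2 was higher (6.67%, against 18.9%). The groups did not overlap for 11 member probes (8 lower, 3 higher) and for 65.9% of all tested probes (36.1% lower, 29.8% higher). The median difference was -0.28 over the member probes and -0.08 over all tested probes. The member median was -0.09 with cyclic loess and with the percentile over detected probes, and 0.0053 with brightness as a covariate, where all tested probes had -0.04, 0.10 and -0.03. Leaving out any 1 DMSO, rapamycin or BA+rapamycin replicate left 2 called members, Mtor probe 1 and Deptor probe 2. In those fits 23.5% to 37.3% of all tested probes passed. The Rictor call was also lost without BA+DMSO replicate 1. The challenge comparison in the vehicle groups and this one share no arrays.

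**Figure D4:**
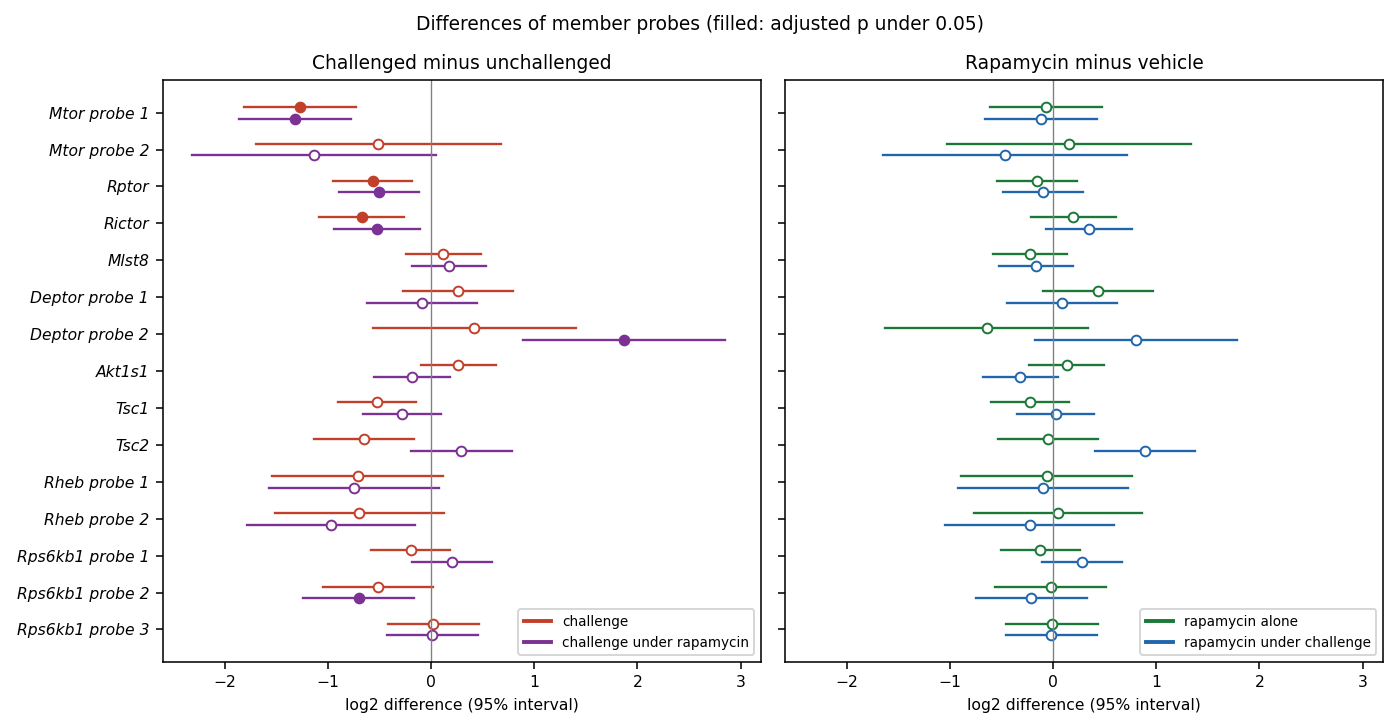
Log2 differences with 95% intervals are shown for the 15 tested probes, on the left for challenged minus unchallenged arrays and on the right for rapamycin minus vehicle. Filled points passed an adjusted p of 0.05, and the filled points are 3 for the challenge, 5 for the challenge under rapamycin and 0 for either rapamycin comparison.

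Rapamycin changed no member transcript past the test. In BA+rapamycin against BA+DMSO, limma called 0 of 15 member probes (0.281% of all tested probes, 0.0719% as higher) and 1, Tsc2, had an unadjusted p under 0.05, as did 20.1% of all tested probes. For rapamycin against DMSO it called 0 (0.0036% of all tested probes), and 0 had an unadjusted p under 0.05, against 4.27% of all tested probes. The interaction, which asks whether rapamycin acted otherwise under challenge, called 0 members and 0% of all tested probes, and 2 members, Tsc2 and Deptor probe 2, had an unadjusted p under 0.05, as did 6.12% of all tested probes. Averaged over both backgrounds, rapamycin called 0 members (0.306% of all tested probes, 0.0863% as higher), with Tsc2 the 1 member at an unadjusted p under 0.05, against 15.8% of all tested probes. Array weights, an alternative, called 1 member in that average (Rictor, 0.27), with 24.5% of all tested probes, and 1 under challenge (Tsc2, 0.50), with 25.5%.

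The intervals show what size of rapamycin effect these arrays leave possible. For the average over backgrounds the 95% interval was -0.48 to 0.29 for Mtor probe 1, -0.40 to 0.15 for Rptor, -0.02 to 0.57 for Rictor, -0.45 to 0.06 for Mlst8 and -0.33 to 0.30 for Rps6kb1 probe 3. It was widest for Mtor probe 2 (-0.99 to 0.68), Deptor probe 2 (-0.61 to 0.77) and Rheb probe 1 (-0.67 to 0.50). Of the 15 intervals, 1 did not include 0, that of Tsc2 (0.08 to 0.76), which does not account for the number of probes tested. Rapamycin alone left 4 member probes with groups that did not overlap, Rictor higher and Rptor, Tsc1 and Deptor probe 2 lower. Of all tested probes, 21.5% did not overlap, 10.8% higher and 10.7% lower.

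BA+DMSO replicate 2 decided how many probes passed in the rapamycin comparison under challenge. Without it, 39.9% of all tested probes passed, and 5 members did. These were Tsc2 (0.65, adjusted p = 0.0141), Deptor probe 2 (1.24, adjusted p = 0.0400) and Rps6kb1 probe 1 (0.43, adjusted p = 0.0359), higher with rapamycin, and Rheb probe 2 (-0.72, adjusted p = 0.0396) and Rps6kb1 probe 2 (-0.51, adjusted p = 0.0355), lower. Without replicate 1 or without replicate 3 of that group, 0 members passed, with 0.806% and 0.122% of all tested probes.

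Rictor and Rptor mark the separate complexes, and their difference within an array does not depend on the scaling between arrays. Rictor minus Rptor was -1.86, -1.73 and -1.59 with DMSO, -1.41, -1.46 and -1.25 with rapamycin, -1.55, -2.39 and -1.55 with BA+DMSO, and -1.46, -1.21 and -1.51 with BA+rapamycin. In both backgrounds every rapamycin array lay above every vehicle array. The rise was 0.35 without challenge and 0.44 with it, each with an exact two-sided permutation p of 0.1, the smallest that 3 against 3 allows. The rise under challenge rested largely on BA+DMSO replicate 2 and was 0.16 without it. Challenged and unchallenged arrays differed by -0.06 (6 against 6, exact permutation p = 0.786).

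Averaged over both backgrounds the rise was 0.40, and it stayed between 0.26 and 0.47 in 14 alternatives. It was 0.26 without BA+DMSO replicate 2, whose difference of -2.39 was the lowest. Between arrays whose titles share a number string it was 0.30 without challenge (2 against 2 arrays) and 0.09 with it (1 against 1), and these pairs were looked at after the other values. A difference of a pair of probes within an array shows unequal change, and neither gene alone passed the test for rapamycin.

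**Figure D5:**
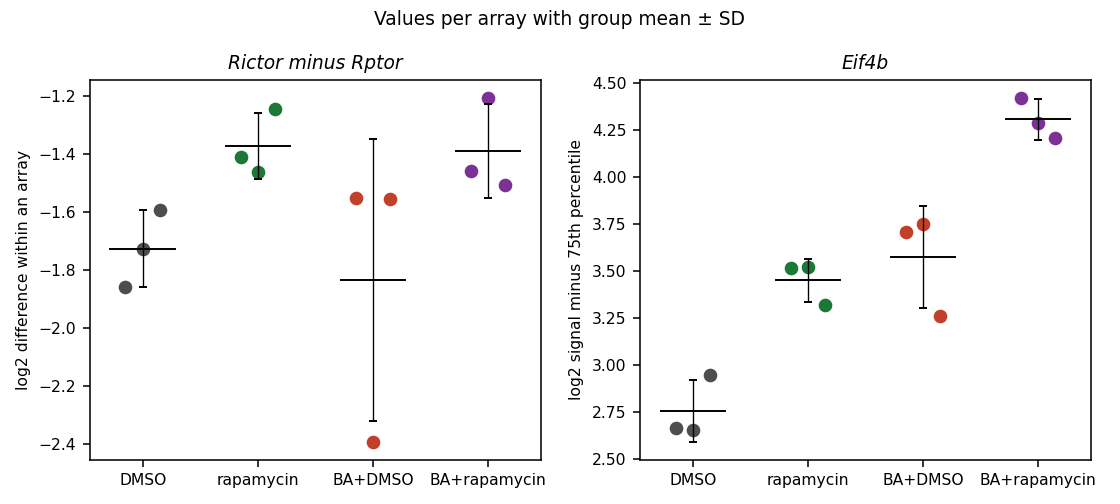
The left panel plots Rictor minus Rptor within each array (log2) and the right panel the log2 level of Eif4b, by group with the mean ± SD. In both panels the rapamycin arrays lie above the vehicle arrays of the same background, and BA+DMSO replicate 2 is lowest on the left at -2.39.

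The rest of the pathway was read from 5 lists of 97 genes, 96 of which were tested by their brightest probe. In BA+DMSO against DMSO, 26 of 96 passed, 5 higher and 21 lower, where 20.5% of all tested probes passed, 9.65% higher and 10.8% lower. In BA+rapamycin against rapamycin, 46 of 96 passed, 7 higher and 39 lower, where 41.7% did, 18.9% higher and 22.9% lower. These shares of all tested probes are the background for each list below. Rapamycin under challenge and rapamycin alone called 0 of 96 each in limma. For the challenge the count ranged from 6, without DMSO replicate 2 (7.38% of all tested probes), to 48, without BA+DMSO replicate 3 (38%). It was 10 without DMSO replicate 1 (11.8%), 9 without DMSO replicate 3 (11%) and 11 without BA+DMSO replicate 1 (11.2%). Under rapamycin it ranged from 29, without rapamycin replicate 3 (23.5%), to 63, without BA+DMSO replicate 2 (56.9%). With the slide as a fixed block the challenge count was 0 (0.054% of all tested probes), as it was with the 2 groups fitted alone (4.47%), and array weights gave 58 (46.1%). With brightness as a covariate it was 15, 8 higher and 7 lower (18.3%). Under rapamycin the count was 3 with brightness, 11 on slide 2 alone and 69 with array weights, where 6.42%, 11.8% and 63.1% of all tested probes passed.

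In the list of mTORC2 subunits and assembly factors, 2 of 6 passed for the challenge (20.5% of all tested probes) and 4 of 6 under rapamycin (41.7%). Prr5 and Prr5l encode the related subunits Protor-1 and Protor-2, and they moved in opposite directions. Prr5 rose by 1.56 (SE 0.27, 2.96-fold, adjusted p = 0.00368) and by 1.42 under rapamycin (adjusted p = 0.00342). Its levels were -1.07, -1.63 and -1.08 with DMSO and 0.87, 0.28 and -0.23 with BA+DMSO, so that BA+DMSO replicate 3 was again nearest to DMSO. Prr5l was lower by -0.90 (SE 0.19, 1.87-fold, adjusted p = 0.00956) and by -0.84 under rapamycin (adjusted p = 0.00722), and its second probe differed by -0.79 (adjusted p = 0.0402) for the challenge and by -0.54 (adjusted p = 0.0877) under rapamycin. Mapkap1, which encodes the mTORC2 subunit Sin1, was lower by -0.66 under rapamycin (adjusted p = 0.0191), and its challenge difference of -0.32 did not pass (adjusted p = 0.252).

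Of 6 FKBP genes, 2 passed in each challenge comparison, where 20.5% and 41.7% of all tested probes passed. Fkbp1a encodes FKBP12, the protein that binds rapamycin. Its brightest probe read 6.80, 6.82 and 6.99 with DMSO, 6.67, 7.03 and 6.65 with rapamycin, 7.76, 8.53 and 7.11 with BA+DMSO, and 8.06, 8.52 and 8.26 with BA+rapamycin. All challenged arrays lay above all unchallenged arrays, BA+DMSO replicate 3 by the least. The difference was 0.93 for the challenge (SE 0.30, adjusted p = 0.0503) and 1.495 under rapamycin (SE 0.30, 2.82-fold, adjusted p = 0.00412). A second Fkbp1a probe gave 1.36 (adjusted p = 0.0130) and 1.84 (adjusted p = 0.00181), and the remaining tested probe gave 0.12 and 0.03 and did not pass. Fkbp4, which encodes a partner of the chaperone Hsp90, was lower by -0.82 (adjusted p = 0.0323) and by -1.12 under rapamycin (adjusted p = 0.00488). Fkbp5, a target of glucocorticoid hormones, rose by 1.504 for the challenge (adjusted p = 0.0489). Under rapamycin its difference was -0.02 (adjusted p = 0.980), with rapamycin arrays that spread from 1.06 to 3.27, and rapamycin minus DMSO was 1.75 (adjusted p = 0.704).

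In the amino acid sensing list, 4 of 30 tested genes passed for the challenge, all lower, and 12 of 30 under rapamycin, 11 lower. Of all tested probes 20.5% and 41.7% passed, 10.8% and 22.9% as lower, and the difference from these shares was not tested. Named genes were Rragb, a Rag GTPase that recruits mTORC1 to the lysosome, Mios, a subunit of GATOR2, and Fnip2, a partner of folliculin. For the challenge, Mios differed by -0.89 (adjusted p = 0.0485) and Fnip2 by -0.76 (adjusted p = 0.0151). Rragb also passed (adjusted p = 0.0108), but only 1 of 3 BA+DMSO arrays had it well above background, so its fitted difference of -1.93 has no firm size. No BA+rapamycin array had it well above background, and its mean with BA+rapamycin was at least 1.07-fold below that with rapamycin (adjusted p = 0.00415). The sestrins, stress-induced inhibitors of mTORC1, did not move together under rapamycin: Sesn3 differed by -1.99 (adjusted p = 0.00286; BA+rapamycin arrays clearing background: 2 of 3) and Sesn1 by -1.48 (adjusted p = 0.00109), while Sesn2, looked up after its relatives were seen, rose by 0.58 (adjusted p = 0.0335). None of them passed for the challenge in the vehicle groups, where the adjusted p was 0.365, 0.102 and 0.586.

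Of 29 genes for growth factor and energy input, 8 passed for the challenge, 7 lower, and 17 under rapamycin, 15 lower, against 20.5% and 41.7% of all tested probes. Subunits of PI3 kinase went in separate directions: Pik3cb was lower for the challenge by -1.39 (adjusted p = 0.0327), and Pik3cd, the form typical of leukocytes, rose by 0.87 for the challenge (adjusted p = 0.0336) and by 1.58 under rapamycin (adjusted p = 0.00142), with macrophage markers higher in the same arrays. The part of those cells in it was not tested. Prkaa2, a catalytic subunit of AMPK, was lower by -1.14 (adjusted p = 0.0313) and by -1.70 under rapamycin (adjusted p = 0.00326). Grb10, an adaptor that restrains insulin signalling, rose by 1.92 under rapamycin (adjusted p = 0.00347), and its challenge difference of 1.11 did not pass (adjusted p = 0.0554).

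Among 25 effectors, 10 passed for the challenge, 2 higher and 8 lower, and 11 under rapamycin, 2 higher and 9 lower, against 20.5% and 41.7% of all tested probes. Lpin1, a phosphatidate phosphatase controlled by mTORC1, was lower by -1.75 (adjusted p = 0.00787; BA+DMSO arrays clearing background: 2 of 3) and by -1.58 under rapamycin (adjusted p = 0.00681). Mitf, a transcription factor that mTORC1 keeps out of the nucleus, was lower by -1.13 (adjusted p = 0.00659), and its second probe gave -0.56 (adjusted p = 0.111). Ndrg1, whose product is phosphorylated by Sgk1, was lower by -0.91 (adjusted p = 0.00762). Sgk1, a kinase activated by mTORC2, was lower by -1.84 under rapamycin (adjusted p = 0.00512), while its challenge difference in the vehicle groups was -0.69 and did not pass (adjusted p = 0.232). Its levels were 2.67, 2.79 and 3.01 with DMSO and 4.08, 3.17 and 4.32 with rapamycin, so that the rapamycin arrays lay above the DMSO arrays. Pdcd4, a translation inhibitor that S6 kinase marks for degradation, rose by 2.12 under rapamycin (4.35-fold, adjusted p = 0.00717), with BA+DMSO levels from 6.45 on replicate 3 to 8.91 on replicate 2 and a challenge difference of 1.23 that did not pass (adjusted p = 0.0963).

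Eif4b, which encodes a translation initiation factor phosphorylated by S6 kinase, was the 1 gene of 96 that passed for rapamycin averaged over backgrounds, where 0.306% of all tested probes passed. Without BA+DMSO replicate 2 that count was 22 and with array weights 21, where 24.7% and 24.5% of all tested probes passed. Its brightest probe read 2.66, 2.65 and 2.95 with DMSO, 3.51, 3.52 and 3.32 with rapamycin, 3.71, 3.75 and 3.26 with BA+DMSO, and 4.42, 4.29 and 4.21 with BA+rapamycin. In each background every rapamycin array lay above every vehicle array. The averaged difference was 0.71 (SE 0.13, 1.64-fold, adjusted p = 0.0487). It stayed between 0.64 and 0.80 in 25 alternatives, of which 8 kept the call and 17 lost it, with adjusted p from 0.00297 to 0.322. Leaving out 1 array lost the call for every DMSO, rapamycin and BA+rapamycin replicate and for BA+DMSO replicate 3. Another Eif4b probe gave 0.64 (adjusted p = 0.129) and the remaining one 0.37 (adjusted p = 0.275). That last probe disagreed on the challenge under rapamycin, at -1.03 (adjusted p = 0.00492) where the brightest gave 0.86 (adjusted p = 0.00483).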

How the data were processed

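RNA of 12 aortas was labelled with Cy3 and hybridised to 1-colour Agilent arrays by the authors. The deposited scanner files hold intensity on a linear scale, background-subtracted by Feature Extraction (10.7.1.1 per the file headers, 9.5.1.1 per the labels). The deposited value table holds intensity with a median of 17.1 in each column and a correlation of at least 0.9999 with a quantile normalization made here; how the authors normalized it is not stated. Outlier spots were removed, log2 was taken and the 75th percentile of each array subtracted. Probes well above background on all 3 arrays of a group were kept (27801 of 55681, with 6 dropped for missing values), and limma 3.58.1 (R 4.3.3) was fitted with 1 mean per group and Benjamini-Hochberg adjustment, called at 0.05. Groups followed the treatment labels, and replicates were numbered in accession order. Precision is limited by 3 mice per group. A gene list used its brightest tested probe per gene. Members described in full had a called probe; of each list, the 3 called genes with the largest change were named per comparison, Fkbp1a in any case, and 1 gene that the rule names is not reported here; other members were given by range, except that the Tsc2 and Sesn2 values were listed after they were seen. Of 17 member probes, 15 carry a RefSeq accession, and all 15 gave the same symbol in the RefSeq table. The scripts were tested on simulated data. Alternatives were other scalings, background corrections, filters, blocks for slide, replicate number and a number string shared by titles, array weights, a brightness covariate and leaving out each array. The members and lists were chosen with earlier results of these data known.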

Additional observations from a re-analysis of the deposited data

Results flagged for a closer look

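The Tsc2 groups separated in opposite directions in the challenge comparisons of the vehicle and rapamycin groups, and neither comparison passed. Of all tested probes, 20.1% separated as lower in the vehicle groups and 29.8% as higher in the rapamycin groups. Every BA+DMSO array lay below every DMSO array (log2 difference -0.65, adjusted p = 0.0605), and every BA+rapamycin array lay above every rapamycin array (0.30, adjusted p = 0.291). The difference between them, the interaction, was 0.94 (SE 0.31). In limma its unadjusted p was 0.0117 and its adjusted p over all tested probes was 0.735, so the difference did not pass. BA+DMSO replicate 2, at -3.12, was not well above background, and without it the vehicle difference was -0.40. Without BA+rapamycin replicate 2 the difference under rapamycin was 0.15.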

How the results depend on the processing

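The number of members called for the challenge was 3, with 20.5% of all tested probes called. It was 5 with normexp background correction (23.7%), 1 with no filter (7.65%) and 0 with the slide as a fixed block (0.054%). It was 5 with the slide as a random block (36.9%), 0 with the 2 groups alone (4.47%) and 5 with array weights (46.1%). The slide as a random block had a correlation of -0.13, so that count is not one with a slide effect removed. Under the methods' rule, p under 0.01 (taken here without adjustment) and over 4-fold, it was 0 (2.51%). Leaving out 1 array gave 1 to 9 (7.38% to 38%). For the challenge under rapamycin (5, 41.7%) it was 3 with quantile normalization (41.4%), 2 with cyclic loess (40.9%), 2 with the percentile over detected probes (41.4%), 3 with the deposited value table (41.2%), 10 with normexp (62.4%), 2 with the slide as a fixed block (28.5%), 1 on slide 2 alone (11.8%), 2 with the replicate number as a block (37.6%), 8 with array weights (63.1%), 0 with brightness as a covariate (6.42%) and 0 under the methods' rule (5.14%), and 2 to 7 on leaving out 1 array (23.5% to 56.9%). The causes were not tested. For rapamycin under challenge (0, 0.281%) it was 1 with the detected-probe percentile (1.7%), 1 with array weights (25.5%) and 0 to 5 on leaving out 1 array (0.108% to 39.9%), and for rapamycin averaged (0, 0.306%) it was 1 with array weights (24.5%). Rapamycin alone and the interaction stayed at 0 members in the alternatives run. Of all tested probes, rapamycin alone then called up to 1.92%, with array weights. The interaction called up to 11%, without BA+DMSO replicate 2, and 3.34% with array weights. With the title string as a random block, 3 and 4 members were called in the challenge comparisons (19.1% and 40%), and 458 rather than 78 of all tested probes passed for rapamycin under challenge. The replicate numbers are given in accession order and are not a pairing; same-numbered DMSO and rapamycin arrays deviated with correlations of -0.22, 0.17 and -0.35.

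Member pairs of probes that disagreed (0) were 3 with normexp and 0 to 2 on leaving out 1 array. Rictor minus Rptor between challenged and unchallenged arrays turned to 0.18 with normexp and to 0.094 without BA+DMSO replicate 2, within a range of -0.14 to 0.094 on leaving out 1 array. With brightness as a covariate, the differences under rapamycin turned to -0.021 for Deptor probe 2 and to 0.15 for Rps6kb1 probe 2. Quantile normalization moved the median over all tested probes from -0.08 to -0.18 under rapamycin. Dim probes are limited by background on some arrays, Mtor probe 2 on most challenged ones and Tsc2 on BA+DMSO replicate 2. For Deptor probe 2 these arrays are rapamycin replicate 3 and BA+DMSO replicate 3.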
